A study of Mus musculus with 6 samples.

Results

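Chromatin condensation enzymes and the nuclear export receptor exportin 7 were followed in mouse erythroid cultures treated with NUP-17d, a small-molecule inhibitor of pleckstrin-2 (Plek2). The set held 9 genes named for their place in nuclear maturation of the erythroblast, namely Xpo7, Setd8 (listed under its current symbol, Kmt5a), Hdac1, Hdac2, Hdac3, Hdac5, Hdac6, Kat2a and Lmnb1. Each was found by its symbol among the 17060 genes listed in at least 1 culture, and all 9 were among the 12306 genes with enough reads to be tested.

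Lineage-negative cells, the BM fraction left after cells with markers of mature lineages are removed, were purified from WT mice and cultured in EPO induction medium. The 3 control cultures received the vehicle DMSO and the 3 treated cultures received NUP-17d, each for 48 hours. All 6 cultures therefore share the kind of source (WT marrow), EPO and culture time, and differ in the compound alone as far as the labels say. The labels give no strain, age or sex of the mice and do not say whether the cultures of a group came from separate animals, so the p-values measure the spread between these cultures, which may be technical.

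During terminal erythropoiesis the nucleus shrinks, its chromatin condenses and it is finally expelled. Histone deacetylases (HDACs) remove acetyl groups that histone acetyltransferases such as Kat2a add, Setd8 monomethylates histone H4 at lysine 20 (H4K20), and the lamina, of which lamin B1 (Lmnb1) is a part, is opened as the nucleus matures. Exportin 7 carries proteins out of the nucleus with the help of the GTPase Ran, is strongly induced in erythroblasts, and is known for its part in moving histones out of the nucleus in these cells.

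The expected counts, the deposited estimates of reads per gene, summed to 20076409 to 20419018 per culture. The labels name the cells erythroblasts, and all 20 erythroid marker genes examined were present in both groups. They were also all lower with NUP-17d (median log2 fold change -0.67; 18 of 20 with library totals alone), and their summed FPKM (reads per transcript length and library total) was 321590 to 356060 with DMSO and 208360 to 230900 with NUP-17d. Hemoglobin genes took 18.3% to 20.3% of the counts with DMSO and 11.8% to 13.1% with NUP-17d. Markers of other lineages were present as well. With NUP-17d, 3 of 11 neutrophil markers were higher and 1 lower, 4 of 10 macrophage markers higher and 2 lower, and 5 of 8 megakaryocyte markers higher and 1 lower. In mast cell and basophil markers 2 of 6 tested were higher and 2 lower, in B cell markers 0 of 7 higher and 2 lower, and in T cell markers 0 of 5 passed the test. Of all tested genes, 16.4% were higher and 18.9% lower. With library totals alone 9 neutrophil, 7 macrophage and 7 megakaryocyte markers were higher and 0, 0 and 1 lower. For mast cell and basophil, B cell and T cell markers these counts were 3, 1 and 1 higher and 0, 1 and 0 lower. The summed FPKM of the neutrophil markers was 3200 to 3252 with DMSO and 3925 to 4125 with NUP-17d, and that of the macrophage markers 2199 to 2465 and 3097 to 3405. FPKM carries no correction for library composition, and after TMM scaling the median log2 fold changes of these lists were 0.021 and 0.027. That of the megakaryocyte markers was 0.15. The B and T cell markers summed to at most 12.5 and 3.40, and 5 of 8 and 5 of 6 of them stayed below 1 FPKM. In bulk RNA, fewer cells of a type and less RNA per cell cannot be told apart, and the part of cell makeup in any result that follows was not tested.

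Since the groups differ this much in library composition, the scaling sets where zero lies. Levels are given as CPM (counts scaled to a common library total) after TMM scaling, which sets libraries against each other by the bulk of their genes, and the median log2 fold change of the 12306 tested genes was then 0.01. With scaling by library totals alone the same median was 0.28, so that 8458 genes passed the test as higher and 657 as lower. Changes are therefore reported on the TMM scale, close to the median gene, and members that change sign without it are named where they occur.

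Of the 9 members, 5 passed an adjusted p of 0.05 (edgeR quasi-likelihood test, with p-values adjusted over the 12306 genes by Benjamini-Hochberg), beside 35.3% of all tested genes. Hdac5 alone was higher with NUP-17d, beside 16.4% of all genes. Xpo7, Setd8, Hdac1 and Lmnb1 were lower, beside 18.9% of all genes, although with library totals alone only Xpo7 was lower and the other 8 were called higher. The 3 DMSO and 3 NUP-17d values did not overlap for 6 members, which are the 5 called and Hdac2, and for 46% of all tested genes. The median log2 fold change of the members was -0.099. Most of these changes were small, and Xpo7 and Hdac5 were the only members with an absolute log2 fold change above the median of all tested genes, 0.134.

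**Figure D1:**
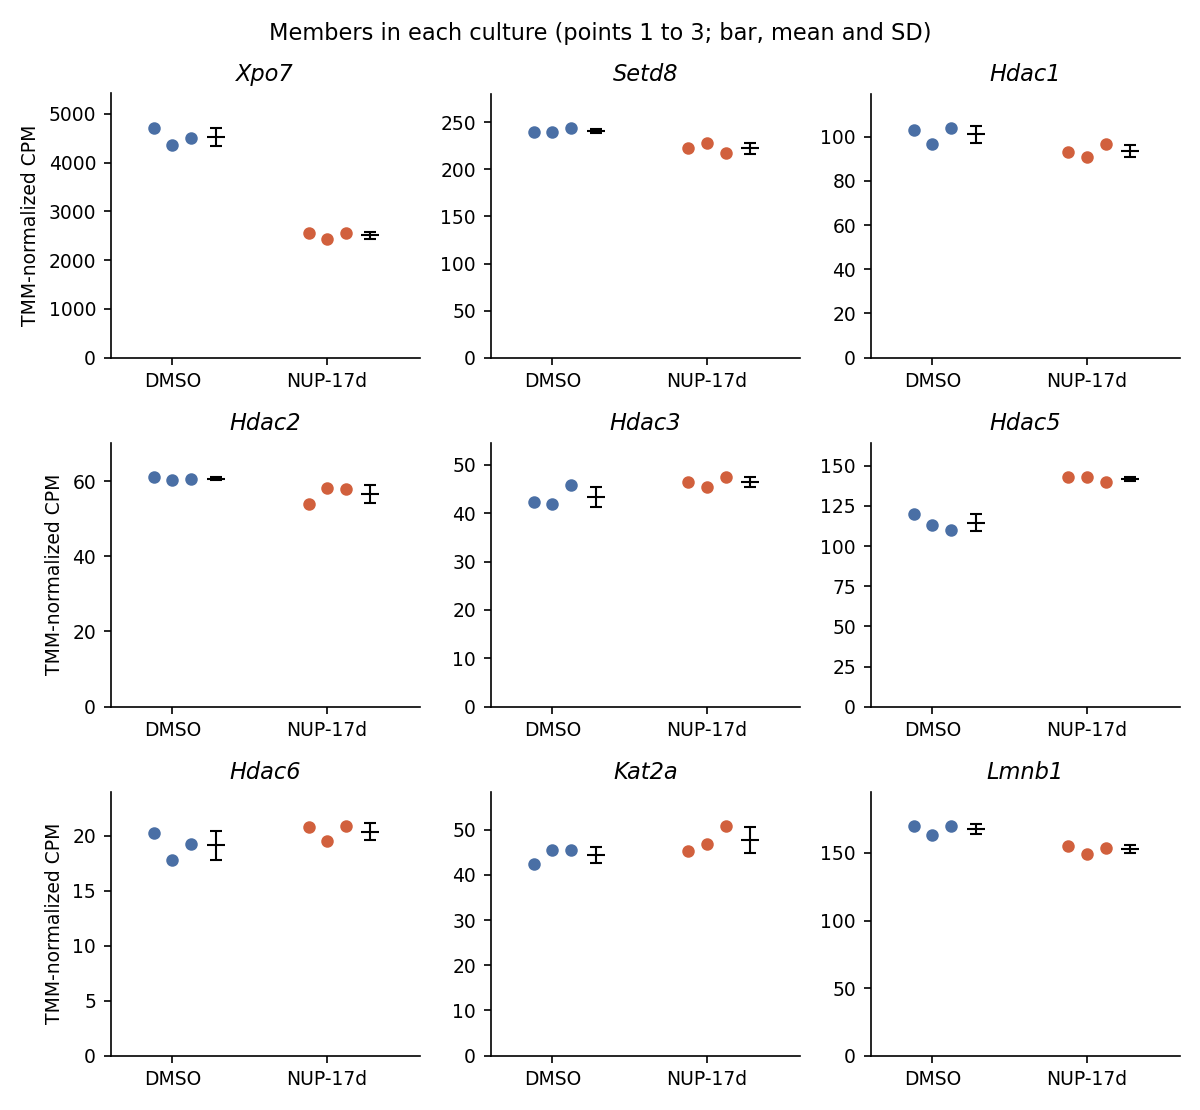
TMM-normalized CPM of each member (vertical axes, starting at 0) in the 3 DMSO and 3 NUP-17d cultures, with the mean and SD beside the points. Xpo7 falls from 4356 to 4712 down to 2425 to 2561, Hdac5 sits higher in all 3 NUP-17d cultures, and the group means of the others lie close together.

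Xpo7 showed the largest change by far. The gene lies on chromosome 14 (GRCm38, 70654246 to 70766628, minus strand) and encodes exportin 7. Its level was 4712, 4356 and 4513 CPM in DMSO cultures 1, 2 and 3. With NUP-17d it was 2561, 2425 and 2548. Every treated culture lay far below every control culture, and the spread within either group was small beside the gap. Mean levels were 4527 ± 178 with DMSO and 2512 ± 75.1 for treated cells (SD, n = 3 each), a 1.80-fold lower level. On the log2 scale the change was -0.85 with an SE of 0.039 and a 95% confidence interval of -0.93 to -0.77 (edgeR adjusted p = 2.75e-15).

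Exportin 7 mRNA was abundant in these cultures. By mean expected count, which favours long transcripts, Xpo7 ranked 14 among all listed genes, and by mean FPKM in DMSO cultures it ranked 214. It took 0.412% of all counts with DMSO and 0.275% with NUP-17d. Only 1.96% of tested genes had a larger absolute log2 fold change. With library totals alone it was still lower, by 0.58 on the log2 scale. On the TMM scale its log2 fold change of -0.85 lay within the range of the 20 erythroid markers, whose median was -0.67. These ran from -0.24 for Klf1 (an erythroid transcription factor) to -1.08 for Hba-a2 (an alpha globin gene), with Slc4a1 (band 3) at -0.71. The 3 tested genes with at least 100 mean counts whose profile over the 6 cultures was nearest to that of Xpo7 were Itsn1, Specc1 and D5Ertd579e, with log2 fold changes of -0.83, -0.82 and -0.86 and root mean square distances of 0.015, 0.018 and 0.019 on the log2 scale, out of 9762 genes compared.

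The annotation holds 2 other protein-coding genes that overlap Xpo7. Npm2, on the same strand, had 3 to 21 counts per culture and Dok2, on the opposite strand, had 190 to 225, against 54089 or more for Xpo7. Of the 15670 distinct 50-base windows in Xpo7 transcripts, 0.217% also occurred in transcripts of another gene. The deposited tables give Xpo7 a transcript length of 15118 bases in every culture, whereas 3 of its 4 protein-coding models in GENCODE M21 have 3663 to 4491 bases. Its FPKM would be higher with a shorter model, while the comparison between groups does not depend on the length.

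Many other nuclear transport genes were lower on the TMM scale, with far smaller steps. Among 29 tested transport receptors and Ran cycle genes, Xpo7 included, 17 were lower (beside 18.9% of all genes), 0 were higher and 12 did not pass, with a median log2 fold change of -0.13 beside 0.01 for all genes; with library totals alone 21 were higher and 1, Xpo7, was lower. Tnpo1 (transportin 1, an import receptor) went from 148 ± 1.65 to 120 ± 7.19 CPM, a log2 fold change of -0.30 (edgeR adjusted p = 8.99e-07). Ran itself changed by -0.19 and Xpo1, the general export receptor, by -0.18, and both turn positive with library totals alone (0.08 each). Ranbp17, the closest relative of Xpo7, had a level of 2.55 CPM for DMSO and 2.48 for treated cells and did not pass (log2 fold change -0.043, edgeR adjusted p = 0.871).

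Within the exportin family the share of Xpo7 can be read without any scaling of the libraries, because all genes of a culture share the same total. Xpo7 held 69.7%, 67.8% and 68.8% of the summed FPKM of 8 exportin genes in the DMSO cultures and 57.0%, 56.2% and 58.0% in the NUP-17d cultures. The shares of the groups did not overlap, and Xpo7 nevertheless remained the main exportin transcript of every culture. Xpo1 came next, with 8.57% ± 0.320 and 11.3% ± 0.276 (SD, n = 3 each). The shares of the other exportin genes were also higher with NUP-17d, without overlap. Shares add up to the whole, so a higher share does not show that the level of that gene rose.

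Setd8 was slightly lower in treated cells. The gene lies on chromosome 5 (GRCm38, 124439930 to 124462308, plus strand). Its level was 240, 240 and 244 CPM with DMSO and 223, 228 and 217 with NUP-17d. All treated values lay below all control values, although the gap was small. This gave a log2 fold change of -0.12 with an SE of 0.034 (95% confidence interval -0.19 to -0.045, edgeR adjusted p = 0.00977). The direction depends on the scaling, since with library totals alone it was 0.15 and passed the test as higher.

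Most genes that act with Setd8 were lower on the TMM scale as well. Setd8 itself is counted in the list that follows, among the genes called lower. The list of H4K20 methylation and Setd8 turnover had 14 tested genes, of which 11 were lower and 0 higher (beside 18.9% and 16.4% of all genes) with a median of -0.15 beside 0.01, and with library totals alone 7 were higher and 2 lower. Those with the lowest p-values were Cul4a, a scaffold of the ubiquitin ligase that marks Setd8 for destruction, from 240 ± 4.60 to 187 ± 2.81 CPM (log2 fold change -0.36), and Phf8, a demethylase that acts on H4K20me1, from 103 ± 2.89 to 80.2 ± 1.74 (-0.37). Pcna, the replication clamp on which Setd8 is degraded, changed by -0.19 and turned to 0.08 with library totals alone. Kmt5c, which adds further methyl groups to H4K20, changed by -0.098 (edgeR adjusted p = 0.0439), and its relative Kmt5b had -0.09 and did not pass (edgeR adjusted p = 0.081). The share of Setd8 in the summed FPKM of these 3 methyltransferases was 62.8% ± 0.274 with DMSO and 62.8% ± 0.794 for treated cells, and the groups overlapped.

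Hdac1 and Hdac2 encode the catalytic subunits of the large nuclear corepressor complexes. Hdac1 (chromosome 4, GRCm38, 129516104 to 129542713, minus strand) had 103, 96.7 and 104 CPM with DMSO and 93.3, 91.0 and 96.7 with NUP-17d. The highest treated culture and the lowest control culture nearly touched. Its log2 fold change was -0.11 with an SE of 0.040 (edgeR adjusted p = 0.0324), a call that held in only 2 of 6 fits that left out a culture. It was lost without DMSO culture 1 or 3 or NUP-17d culture 1 or 2, where the edgeR adjusted p was 0.098, 0.142, 0.0614 and 0.138. Hdac1 came to 0.16 with library totals alone and was called higher.

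Hdac2 (chromosome 10, GRCm38, 36974544 to 37001889, plus strand) had 61.1, 60.3 and 60.5 CPM with DMSO and 53.9, 58.2 and 57.8 with NUP-17d. The groups did not overlap, but NUP-17d culture 1 lay apart from the other treated cultures. With a log2 fold change of -0.099 and a 95% confidence interval of -0.19 to -0.011, Hdac2 did not pass after adjustment (edgeR adjusted p = 0.076). With library totals alone its sign turned, to 0.17, and it was called higher (edgeR adjusted p = 0.00281). The ratio of Hdac2 to Hdac1 counts was 0.600 ± 0.0208 with DMSO and 0.605 ± 0.0316 for treated cells (SD, n = 3 each), and the groups overlapped.

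Hdac1 and Hdac2 are close relatives, and their coding sequences are shown to tell how far short reads can separate them and a processed pseudogene of Hdac1. The 60-base window around the longest exact run the genes share is printed 5′ to 3′ from GENCODE M21 transcripts, with that run of 17 bases in capitals. It covers coding bases 220 to 279 of Hdac1 and 223 to 282 of Hdac2, and bases 220 to 279 of the pseudogene Gm10093.
Hdac1: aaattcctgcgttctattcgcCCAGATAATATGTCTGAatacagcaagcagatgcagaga
Hdac2: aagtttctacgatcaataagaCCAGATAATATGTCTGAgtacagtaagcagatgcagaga
Gm10093: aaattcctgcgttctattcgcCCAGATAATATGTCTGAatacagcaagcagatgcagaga

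Hdac1 and Hdac2 had 50 of these 60 bases in common, and no 50-base window of Hdac2 occurred in a transcript of any other gene. The pseudogene matched Hdac1 at all 60. Of 1989 distinct 50-base windows in Hdac1, 1167 (58.7%) also occurred in another gene's transcripts, 1121 of them in Gm10093. The read length is not given in the sources used here, and longer reads would share less. Reads of 50 bases from these stretches could not be assigned to Hdac1 by sequence alone, while 0% to 1.12% of windows were shared for the other members. The expected count of Hdac1 was whole in all 6 cultures, and no value of Gm10093 was used here.

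Hdac3, the catalytic subunit of the NCoR and SMRT corepressors, had 42.3, 42.0 and 45.8 CPM with DMSO and 46.5, 45.4 and 47.5 with NUP-17d. DMSO culture 3 lay above NUP-17d culture 2, so the groups overlapped. The log2 fold change was 0.10 with a 95% confidence interval of 0.0036 to 0.20, which did not pass after adjustment (edgeR adjusted p = 0.101). It passed when DMSO culture 3 was left out (0.14, edgeR adjusted p = 0.0387) and with library totals alone (0.37).

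Hdac5, a class IIa enzyme that shuttles between nucleus and cytoplasm, was the member that rose. The gene lies on chromosome 11 (GRCm38, 102194432 to 102230166, minus strand). Its level was 120, 113 and 110 CPM with DMSO and 143, 143 and 140 with NUP-17d. Every treated culture lay well above every control culture. The mean went from 114 ± 5.37 to 142 ± 1.30 (SD, n = 3 each), a 1.24-fold higher level. This is a log2 fold change of 0.31 with an SE of 0.038 and a 95% confidence interval of 0.23 to 0.39 (edgeR adjusted p = 2.75e-07), and 18.7% of tested genes had a larger absolute change. It was 0.58 with library totals alone. Among the 9762 tested genes with at least 100 mean counts, Zswim8, Ubald1 and Vps11 had the profile nearest to that of Hdac5. Their log2 fold changes were 0.30, 0.30 and 0.27 and their root mean square distances 0.015, 0.023 and 0.023.

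The 250 bases before the start of Hdac5 are shown because it was the only member called higher. They were read from RefSeq promoter sequences (GRCm38.p6, chr11:102230173-102230422, minus strand). Hdac3 and Lmnb1 were not looked up there, and 5 of the other members were found.
Hdac5: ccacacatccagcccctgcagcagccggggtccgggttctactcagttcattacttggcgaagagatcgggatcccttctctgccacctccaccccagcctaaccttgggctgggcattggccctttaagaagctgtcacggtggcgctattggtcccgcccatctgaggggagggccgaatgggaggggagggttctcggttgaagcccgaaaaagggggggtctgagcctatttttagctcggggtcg

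This window was 60.8% G and C. It was searched on both strands for GATA motifs, spelled AGATAA or else TGATAA, with AGATAG as well as TGATAG as further spellings. The E2F motifs searched were TTTGGCGC along with TTTCCCGC, and a further spelling, TTTGGCGG. No match of either kind was in the window. Over the 32851 promoter windows of this length that were searched, which do not cover every chromosome, 26.5% held a GATA match and 1.73% an E2F match. Of the other members with an entry, Kat2a and 1 of 3 Setd8 starts had 1 GATA match each, Hdac6 had 1 E2F match and Hdac2 had neither. A match or its absence describes these letters and nothing about the factor.

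Hdac6, a cytoplasmic deacetylase that acts on tubulin, had the lowest level of the set. The gene lies on chromosome X (GRCm38, 7930120 to 7947889, minus strand). It had 20.3, 17.8 and 19.3 CPM with DMSO and 20.8, 19.5 and 20.9 with NUP-17d. The groups overlapped. Its log2 fold change was 0.093 with a 95% confidence interval of -0.041 to 0.23 (edgeR adjusted p = 0.286), so a rise of up to about that upper bound cannot be set aside at this depth of 337 to 459 counts.

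The remaining deacetylases gave little movement apart from Sirt2. Of 18 tested HDAC and sirtuin genes, 5 of them members, 2 were higher (Hdac5 and Sirt2; beside 16.4% of all genes), 1 was lower (Hdac1; beside 18.9%) and 15 did not pass, with a median of 0.07 beside 0.01; with library totals alone 15 were higher and 0 lower. Sirt2, a NAD-dependent deacetylase found mainly in the cytoplasm, had 82.6, 79.0 and 79.3 CPM with DMSO and 124, 126 and 131 for treated cells, which is 0.66 higher on the log2 scale (edgeR adjusted p = 1.63e-13). Its treated cultures all lay far above its controls. The other class IIa genes Hdac4, Hdac7 and Hdac9 had log2 fold changes of 0.15, 0.034 and 0.030 and none passed.

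Shares within the 11 zinc-dependent HDAC genes need no scaling of the libraries. They restate differences between the fold changes of these genes, so their order is not a separate result. Hdac5 held 18.8%, 18.4% and 17.4% of their summed FPKM with DMSO and 22.3%, 22.4% and 21.4% with NUP-17d. Hdac1 held 31.7%, 31.2% and 32.6% and then 28.9%, 28.3% and 29.1%, and Hdac2 went from 18.8% ± 0.276 to 17.1% ± 0.702 (SD, n = 3 each). The groups did not overlap for these 3 genes and overlapped for the other 8. For TMM-scaled levels, a different measure, the groups did not overlap for 46% of all tested genes. A share shows unequal change among genes, so it does not tell which of them moved.

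**Figure D2:**
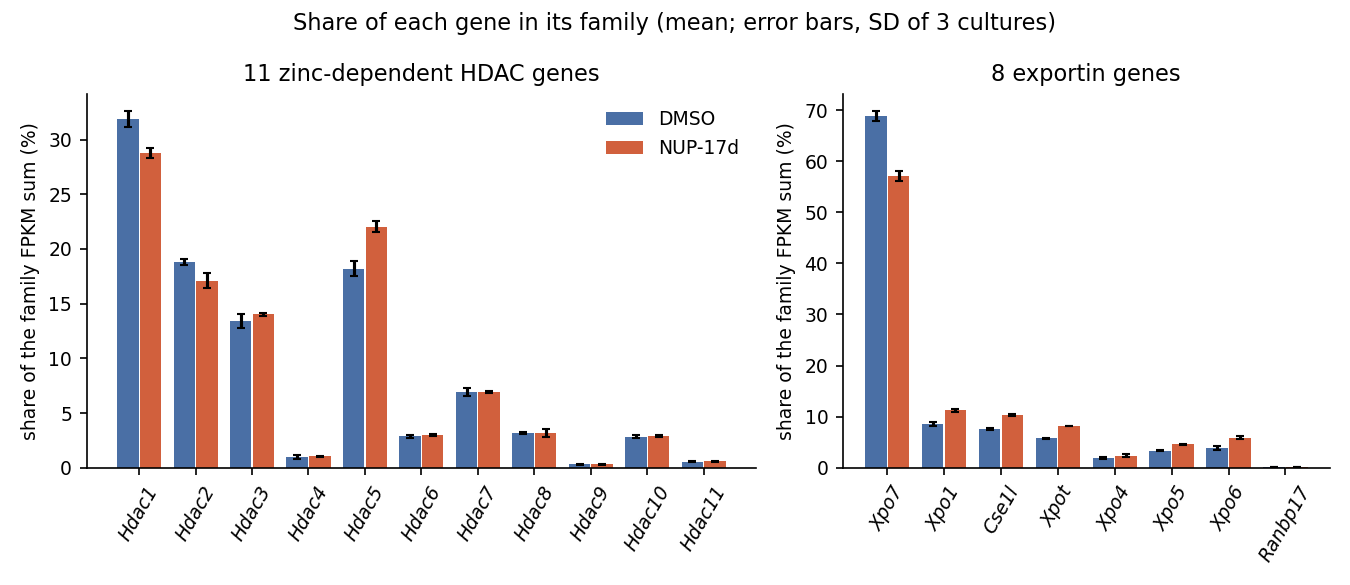
Share of each gene in the summed FPKM of the 11 zinc-dependent HDAC genes (left) and 8 exportin genes (right), as percent, with bars for the mean of 3 DMSO or 3 NUP-17d cultures and error bars for the SD. Hdac5 takes a larger share and Hdac1 and Hdac2 a smaller one with NUP-17d, and Xpo7 goes from 68.8% to 57.1% of its family.

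Among the partners through which Hdac1, Hdac2 and Hdac3 act, the shares called were close to those of all genes. Of 42 tested genes of the NuRD, Sin3, CoREST, NCoR and MiDAC complexes and their associates, 6 were higher and 7 lower (beside 16.4% and 18.9% of all genes) and 29 did not pass, with a median of -0.0033 beside 0.01; with library totals alone 35 were higher and 2 lower. Without DMSO culture 3 the number lower was 4. Arid4b, a Sin3 complex subunit, had the largest change of the list, from 152, 144 and 140 CPM to 78.7, 73.3 and 76.8 (log2 fold change -0.93, edgeR adjusted p = 8.02e-16). Mier1, which recruits Hdac1 and Hdac2, went from 268 ± 7.15 to 182 ± 1.72 (-0.56). These were also the 2 genes of the list called lower with library totals alone. Mta3, a NuRD subunit, changed by -0.25 and lost its direction there (0.018).

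Kat2a (chromosome 11, GRCm38, 100704746 to 100712465, minus strand) is the acetyltransferase of the SAGA and ATAC complexes. It had 42.4, 45.5 and 45.4 CPM with DMSO and 45.3, 46.7 and 50.8 with NUP-17d. The groups overlapped, and NUP-17d culture 3 was the highest. The log2 fold change was 0.098 with a 95% confidence interval of -0.0038 to 0.20 (edgeR adjusted p = 0.129), and 0.37 and called higher with library totals alone. Its paralog Kat2b had 0.019 and did not pass (edgeR adjusted p = 0.756), and Kat2a held 48.8% ± 0.295 and 49.99% ± 1.47 of the summed FPKM of both genes, with overlapping groups.

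The acetyltransferases as a list, Kat2a included, did not stand out from all genes. Of 30 tested acetyltransferases and SAGA or ATAC subunits 3 were higher and 5 lower (beside 16.4% and 18.9% of all genes) and 22 did not pass, with a median of 0.016 beside 0.01; with library totals alone 25 were higher and 0 lower. The number higher was 1 without DMSO culture 1 or 2 or NUP-17d culture 2, and 0 without DMSO culture 3 or NUP-17d culture 1. Ep300 went from 377 ± 19.0 to 311 ± 15.6 CPM and its paralog Crebbp from 99.5 ± 2.79 to 82.5 ± 4.04, with log2 fold changes of -0.28 and -0.27 (edgeR adjusted p = 3.99e-06 and 8.02e-06). Hat1, which acetylates newly made histone H4, changed by -0.28. All 3 were close to 0 with library totals alone, at -0.0082, -0.0029 and -0.010.

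Lmnb1, the gene of lamin B1, was lower in every treated culture. It had 170, 163 and 170 CPM with DMSO and 155, 149 and 154 with NUP-17d. The groups did not overlap. Lmnb1 changed by -0.13 on the log2 scale, with an SE of 0.035 (95% confidence interval -0.21 to -0.060, edgeR adjusted p = 0.00422), and 50.1% of all tested genes had a larger absolute change. With library totals alone it was 0.13 and called higher.

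Across the lamina and inner nuclear membrane, Lmnb1 included, the shares called were also close to those of all genes. Of 21 tested, 4 were higher and 5 lower (beside 16.4% and 18.9% of all genes) and 12 did not pass, with a median of -0.024 beside 0.01; with library totals alone 19 were higher and 0 lower. Without DMSO culture 3 the number higher was 2. Lmna (lamin A/C) changed by -0.22, from 162 ± 3.99 to 139 ± 3.04 CPM, and turned to 0.05 with library totals alone. Fntb, a subunit of the farnesyltransferase that modifies lamins, changed by -0.28, and Syne1 (nesprin-1), which ties the nucleus to the cytoskeleton, by 0.22 (edgeR adjusted p = 3.62e-04 and 7.18e-05). Lmnb2 had -0.015 and did not pass. Lmnb1 made up 42.7% ± 0.622 of the summed FPKM of the 3 lamin genes with DMSO and 44.0% ± 0.509 for treated cells, and the groups did not overlap, with Lmna going the other way from 50.4% ± 0.925 to 48.4% ± 0.473.

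Condensin, the complex that compacts mitotic chromosomes, was examined beside the members. Of its 8 tested subunit genes 6 were lower and 0 higher (beside 18.9% and 16.4% of all genes) and 2 did not pass, with a median of -0.20 beside 0.01; with library totals alone 3 were higher and 0 lower. Ncapg went from 101 ± 4.76 to 82.5 ± 2.73 CPM (-0.30), Smc2 from 240 ± 3.69 to 204 ± 7.93 (-0.24) and Smc4 from 390 ± 4.85 to 335 ± 9.13 (-0.22). With library totals alone Smc2 and Smc4 turned positive (0.028 and 0.050) and Ncapg was at -0.031.

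**Figure D3:**
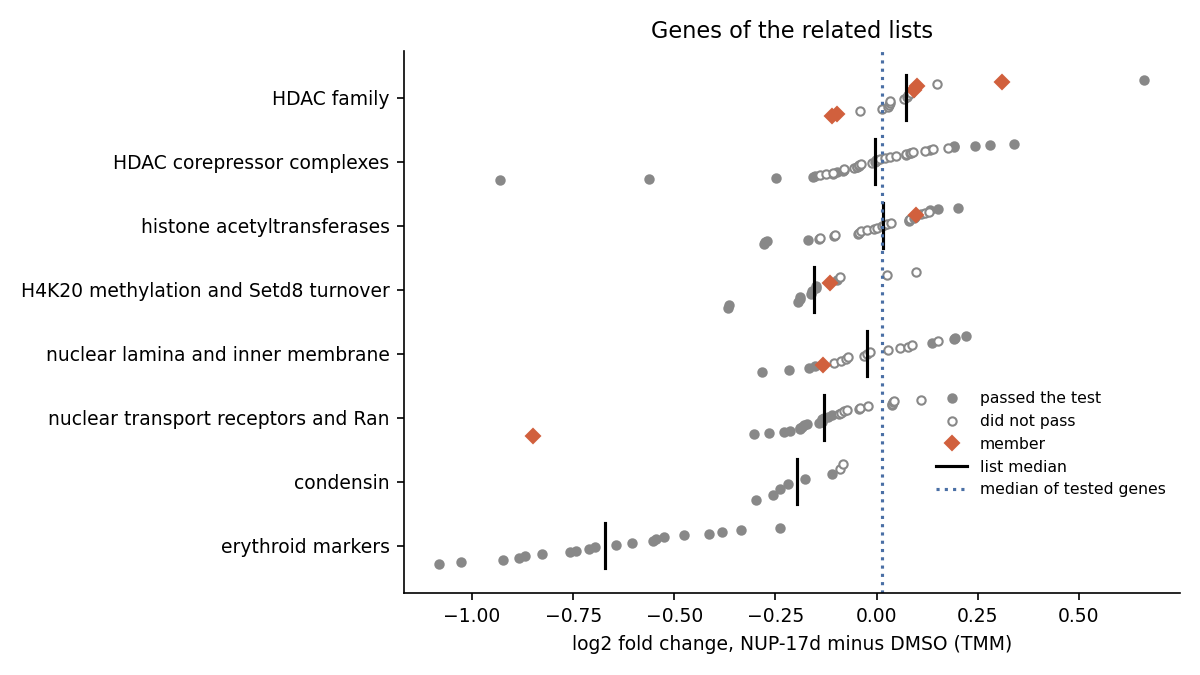
Log2 fold change on the TMM scale (horizontal axis) of each tested gene in 7 related lists and the erythroid markers, with filled points for genes that passed the test, diamonds for the 9 members (whether or not they passed) and a bar for the list median. Xpo7 lies with the erythroid markers, whose median is -0.67, and away from the other transport genes.

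The ratio of a pair of members within a culture does not change with scaling. There were 1.13 ± 0.0651 Hdac5 counts for each Hdac1 count with DMSO and 1.52 ± 0.0586 for treated cells (SD, n = 3 each), with no overlap between the groups. For each Lmnb1 count there were 1.44 ± 0.0303 Setd8 counts with DMSO and 1.46 ± 0.0649 for treated cells, and the groups overlapped. Of all 36 pairs of members 26 did not overlap, among them 8 of 8 pairs with Xpo7 and 7 of 8 with Hdac5. The share among pairs of all tested genes was not computed. These ratios restate differences between the fold changes given above and are descriptions, with no test.

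**Figure D4:**
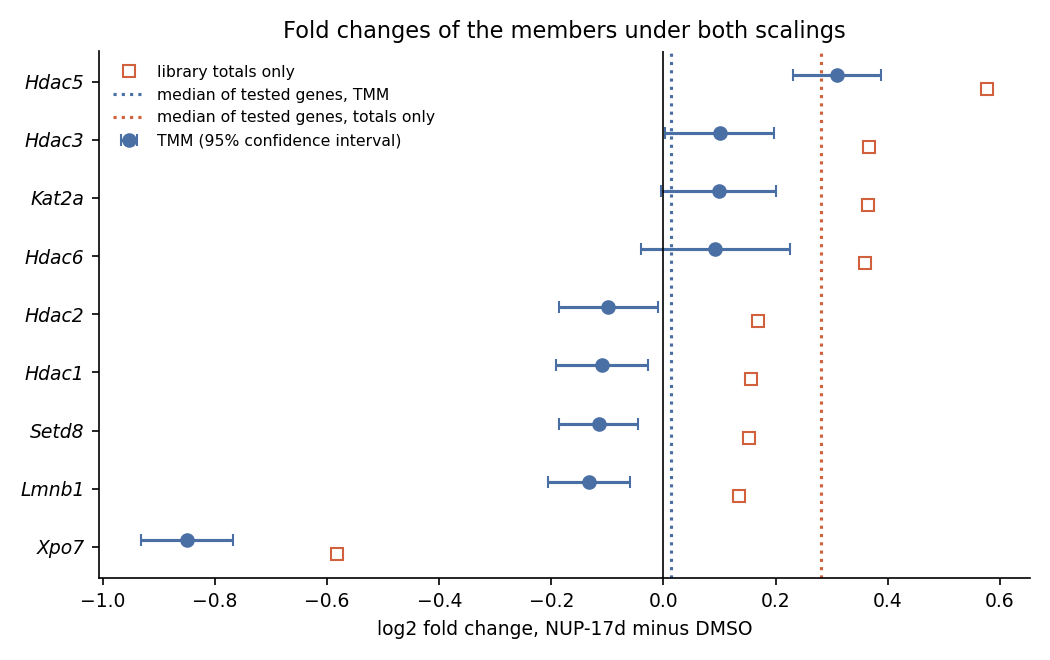
Log2 fold change of each member, NUP-17d minus DMSO, on the TMM scale with its 95% confidence interval (filled circles) and with library totals alone (open squares), and the median of tested genes on each scale (dotted lines, 0.01 and 0.28). The squares lie to the right of the circles by the same step as the medians, and Xpo7 and Hdac5 keep their side of 0.

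Levels of different members can be compared only per transcript length, for which the deposited FPKM was used. In DMSO cultures the order of mean FPKM was Xpo7 (267 ± 4.09), Setd8 (80.6 ± 2.49), Lmnb1 (52.6 ± 0.854), Hdac1 (46.4 ± 1.47), Hdac2 (27.4 ± 0.512), Hdac5 (26.5 ± 0.728), Hdac3 (19.6 ± 1.16), Kat2a (13.1 ± 0.848) and Hdac6 (4.20 ± 0.183; SD, n = 3 each). Hdac2 and Hdac5 overlapped and could not be ordered, and all other neighbours were apart. In NUP-17d cultures Hdac5 (39.7 ± 0.757) stood above Hdac2 (30.9 ± 1.25) without overlap, and the rest of the order was the same. Levels on this scale carry no correction for library composition, and they rose for every member but Xpo7. When FPKM was divided by the TMM factor, the means of Hdac5, Hdac3, Kat2a and Hdac6 still rose. Those of Setd8, Lmnb1, Hdac1 and Hdac2 then fell, as did that of Xpo7. Among the genes that still rose, only Hdac5 passed the edgeR test.

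**Figure D5:**
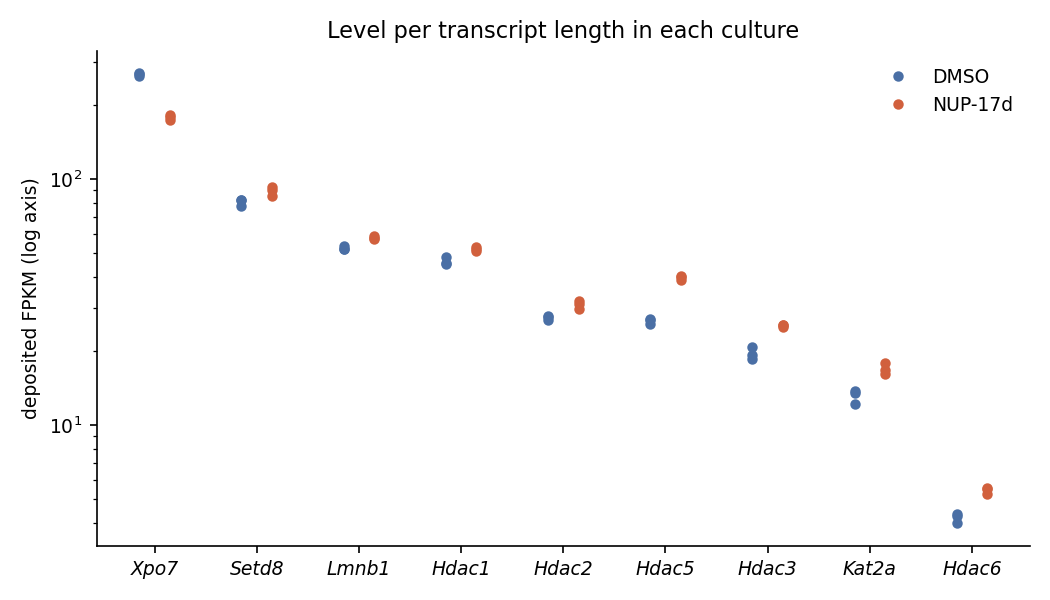
Deposited FPKM of each member (vertical log axis) in the 3 DMSO and 3 NUP-17d cultures, ordered by the DMSO mean. Xpo7 is highest in both groups, at 262 to 270 and 174 to 183, and Hdac5 moves past Hdac2 with NUP-17d.

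The deposited tables also give each gene a transcript length weighted over its isoforms. These lengths were the same in all 6 cultures for Xpo7, Hdac1, Hdac2, Hdac3 and Lmnb1. A length that never varies cannot show whether isoforms changed, and isoform use was not tested. The ranges overlapped between the groups for Setd8, Hdac5, Hdac6 and Kat2a. For Hdac5 they were 3862 to 3872 bases with DMSO and 3855 to 3872 with NUP-17d.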

How the data were processed

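RNA-Seq libraries from 3 DMSO and 3 NUP-17d cultures were analysed, grouped by their labels. Per culture, the files deposited by the authors hold an expected count per gene (an estimate of reads, not normalized, 27.8% to 28.5% of values not whole), the FPKM that the authors derived from it by transcript length and library total, and a weighted transcript length. The submitters' processing notes name the build mm10. The aligner and counter are not given in the sources used here. The labels describe oligo-dT enrichment with N6-primed cDNA read on a DNBseq platform, whereas the study's methods name a stranded Illumina kit. A gene missing from a culture's table was taken as 0.

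Expected counts were rounded and fitted over all genes with edgeR 4.0.16 in R 4.3.3 (filterByExpr, TMM factors 0.887 to 0.93 with DMSO and 1.08 to 1.11 with NUP-17d, quasi-likelihood test, Benjamini-Hochberg adjustment, threshold 0.05). The fits were tried on simulated counts with as many rises as falls and no built-in shift in library composition. That trial does not bear on the choice of scaling. Alternatives were DESeq2 1.42.0, library totals alone, RLE factors, no filter, removal of hemoglobin genes, the culture number as a block, each culture left out, limma 3.58.1 for FPKM on a log2 scale with a pseudocount of 1 or of 0.1 (mean FPKM at least 1), and a minimum absolute log2 fold change of 0.25. Replicates of a group differed by more than sampling noise (chi-square per degree of freedom 1.84 to 4.6). Totals were 20076409 to 20419018 counts per culture, and members had 337 counts or more.

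The members and gene lists were chosen with earlier results of these data known. Named genes are all members, from each related list up to 3 other genes with the lowest p-values past the threshold, the 3 genes nearest to Hdac5 and Xpo7 by root mean square distance, and paralogs of members. Slc4a1, Klf1 and Hba-a2 were named after their values were seen. Gene positions and transcripts are from GENCODE M21. Protein sequences were not used here. Sequences are shown for Hdac1, Hdac2 and Hdac5.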

Additional observations from a re-analysis of the deposited data

How the results depend on the processing

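Xpo7 and Hdac5 kept their direction and passed the test in all 14 alternatives, with log2 fold changes of -0.88 to -0.58 and 0.28 to 0.58. With library totals alone 8 members were called higher and 1 lower, among 9115 genes called, and limma on log2(FPKM + 1) and log2(FPKM + 0.1), which carry no composition correction, also gave 8 and 1, among 8494 and 8480. The limma settings also differ from the edgeR fit in test, input and genes kept (10543 against 12306), and the cause was not tested. With a minimum absolute log2 fold change of 0.25, 1 member was higher and 1 lower among 2205 genes (1021 higher and 1184 lower), with 2 HDAC or sirtuin genes higher and 0 lower, and 2 and 2 corepressor, 0 and 3 acetyltransferase, 0 and 2 H4K20, 0 and 1 lamina, 0 and 3 transport and 0 and 2 condensin genes. DESeq2 called 1161 genes higher against 2019, with 0 HDAC genes lower, 0 acetyltransferase genes higher and 3 lower, and 2 lamina genes higher. With library totals alone, log2(FPKM + 1) and log2(FPKM + 0.1), in that order, Setd8 came to 0.15, 0.15 and 0.15, Hdac1 to 0.16, 0.16 and 0.16, Hdac2 to 0.17, 0.17 and 0.17, Lmnb1 to 0.13, 0.14 and 0.14, Mta3 to 0.018, 0.015 and 0.015, Pcna to 0.077, 0.081 and 0.082, Lmna to 0.0502, 0.036 and 0.037, Ran to 0.077, 0.081 and 0.082, Xpo1 to 0.083, 0.084 and 0.086, Smc2 to 0.028, 0.028 and 0.029, and Smc4 to 0.0495, 0.053 and 0.053, each against a negative value on the TMM scale.

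Leaving out each culture in turn gave 1 to 2 members higher, the second being Hdac3 without DMSO culture 3, and 3 to 4 lower, since Hdac1 kept its call in 2 of 6 such fits. Hdac1 also missed the threshold with DESeq2 (adjusted p = 0.0815) and with no filter on low counts (adjusted p = 0.0524). RLE factors and removal of hemoglobin genes changed no call among the members. The correlation of deviations between same-numbered cultures was 0.0129 to 0.0896, and 5 of 6 cultures correlated best with their own number, and with no correlation over 0.1 the numbers were not taken as a pairing. With the replicate block 1 member was higher and 4 lower.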
